A study of Homo sapiens with 12 samples.

Results

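The 10 genes of heat shock proteins and other chaperones described here were followed across 10 peak lists from chromatin immunoprecipitation followed by sequencing: HSPA8, HSPH1, DNAJB1, DNAJA1, HSP90AA1, HSP90AB1, HSPD1, HSPE1, HSPA5 and HSP90B1. They were chosen by name, with earlier results of these data known. They are 10 of 19974 protein-coding genes on chromosomes 1 to 22 and X of the NCBI RefSeq annotation of GRCh38. For each gene, protein and replicate, the peaks that overlapped a window of 1 kb on either side of a gene end by 1 bp or more were collected. The cells were unmodified (wild type) HEK293T, a human embryonic kidney line, fixed with formaldehyde, and no heat shock or other treatment is named in the labels. There were 2 libraries for each of INTS13, INTS11, HDGF, ZEB1 and ZNF609. The antibodies were commercial, except that against ZNF609, which was made for an earlier study. Input chromatin, in 2 libraries, was not analysed here. The question was whether INTS13 shares its sites with proteins it interacts with. Nothing in the labels tells whether the 2 libraries of a protein are separate cultures, and their spread may be technical.

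Chaperones bind unfolded proteins and help them fold, and their genes are among the most strongly expressed in growing cells. HSF1, the main heat shock factor, binds heat shock elements, inverted repeats of the letters GAA, in front of many of them. Genes of chaperones of the endoplasmic reticulum answer to the unfolded protein response through another motif, the ER stress element. INTS13 and INTS11 are subunits of Integrator, a complex that cuts the nascent RNA of RNA polymerase II, with INTS11 as the subunit that cuts. The PWWP domain of HDGF binds chromatin, ZEB1 represses genes through E-boxes, and ZNF609 carries a zinc finger.

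The sequences in front of the start sites show which of these motifs lie under or beside the peaks described here. RefSeq gives 16 start sites for the 10 genes, and the 250 bases upstream of each were searched on both strands. The 3-unit heat shock element, GAANNTTC followed by 2 bases of any kind and GAA, was found upstream of starts of HSPA8, HSP90AA1, HSP90AB1 and HSPD1, in 4 of 16 windows, against 0.361% of the 22132 windows of protein-coding genes. The 2-unit form GAANNTTC, which the longer element contains, was found in 6 windows, those of the same 4 genes and of DNAJB1 and DNAJA1, against 4.91% of all. The ER stress element, CCAAT and CCACG with 9 bases between them, was found upstream of HSPA5 and HSP90B1, in 2 of 16 windows against 0.0994% of all. The ZEB1 E-box CACCTG was in 2 windows, of HSP90AB1 and HSP90B1, against 17.1% of all. These are matches of letters and not measured binding sites. The windows upstream of 5 genes and the stretch shared by HSPD1 and HSPE1 are given from the RefSeq table for GRCh38.p14, 5′ to 3′ on the strand of the gene, with heat shock elements (GAANNTTC, TTCNNGAA or 3 units) and ER stress elements in capitals. HSPA8 has 2 elements of 3 units upstream of its single annotated start. HSP90AA1 has an element of 3 units, and DNAJB1 has elements of 2 units, at inner starts far from the gene end. HSPA5 and HSP90B1 carry the ER stress element. The stretch between the divergent starts of HSPD1 and HSPE1, 104 bases long, lies under INTS13 replicate 1 and is written on the HSPE1 strand.
HSPA8, chr11:123062137-123062386, minus strand: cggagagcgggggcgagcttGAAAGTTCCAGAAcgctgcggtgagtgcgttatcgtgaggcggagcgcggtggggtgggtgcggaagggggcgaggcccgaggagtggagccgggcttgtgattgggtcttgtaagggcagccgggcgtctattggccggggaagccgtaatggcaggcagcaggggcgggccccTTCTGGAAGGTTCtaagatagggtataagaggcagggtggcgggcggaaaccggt
HSP90AA1 inner start, chr14:102087045-102087294, minus strand: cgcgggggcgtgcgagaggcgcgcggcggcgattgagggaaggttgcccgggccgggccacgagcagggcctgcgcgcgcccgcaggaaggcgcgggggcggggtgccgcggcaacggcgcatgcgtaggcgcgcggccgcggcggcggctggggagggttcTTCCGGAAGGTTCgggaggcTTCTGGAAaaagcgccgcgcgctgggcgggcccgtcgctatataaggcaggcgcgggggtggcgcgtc
DNAJB1 inner start, chr19:14518398-14518647, minus strand: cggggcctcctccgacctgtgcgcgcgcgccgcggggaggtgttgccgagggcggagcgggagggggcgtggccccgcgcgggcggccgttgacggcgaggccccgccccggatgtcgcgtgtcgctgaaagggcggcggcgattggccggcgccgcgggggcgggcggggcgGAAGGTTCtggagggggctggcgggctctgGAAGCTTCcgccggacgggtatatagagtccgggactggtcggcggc
HSPA5, chr9:125241344-125241593, minus strand: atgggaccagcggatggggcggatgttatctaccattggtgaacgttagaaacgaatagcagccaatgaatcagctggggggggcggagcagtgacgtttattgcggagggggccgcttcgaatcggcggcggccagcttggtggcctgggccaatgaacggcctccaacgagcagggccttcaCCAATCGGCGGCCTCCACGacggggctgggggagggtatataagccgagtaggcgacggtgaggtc
HSP90B1, chr12:103930160-103930409, plus strand: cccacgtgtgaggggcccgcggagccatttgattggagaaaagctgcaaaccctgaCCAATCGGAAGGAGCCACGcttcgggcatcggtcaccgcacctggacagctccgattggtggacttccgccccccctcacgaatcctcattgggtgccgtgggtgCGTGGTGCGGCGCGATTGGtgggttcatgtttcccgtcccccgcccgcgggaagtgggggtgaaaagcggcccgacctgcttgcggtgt
HSPD1 and HSPE1, chr2:197500275-197500378, plus strand: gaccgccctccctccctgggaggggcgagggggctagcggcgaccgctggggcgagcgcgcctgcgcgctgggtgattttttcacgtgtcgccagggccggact

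The lists held between 26409 and 416964 peaks on these chromosomes, and their read depth is unknown. The fold of a peak is the ratio to background in the authors' list, and lists were compared only by the percentile of the fold among the peaks of the list, the share of peaks at or below it. A region is a merged stretch that holds a peak of both lists of a protein. In the genome 382 megabase bins were crowded, with a median over the lists of more than 2 times the mean count of peaks, and 0 of the 10 genes lie in one. By the HDGF lists alone, the bins of 4 of the 10 genes, HSP90AA1, HSPA5, DNAJA1 and DNAJB1, exceeded 2 times the mean in both replicates. By the INTS13 lists alone, the bins of 3 of the 10, HSP90AA1, HSP90AB1 and DNAJB1, did so. For HDGF and INTS13 the share outside crowded bins is therefore not a matched one. The median peak count of the bins of the 10 genes over the 10 lists was between 0.0958, at HSPH1, and 1.71, at HSPA5, times that of the mean bin.

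INTS13 lay at the ends of all 10 genes, and HDGF at those of 6. INTS11, ZEB1 and ZNF609 had a region of both lists at none of them. By regions, INTS13 was at 10 of 10 genes, beside 63.7% of all protein-coding genes and 54.5% of those outside crowded bins. HDGF regions were at 6 of 10, beside 22.2% of all and 12.4% outside crowded bins: HSPA8, DNAJB1, HSP90AA1, HSP90AB1, HSPE1 and HSPA5. INTS11 regions were at 0 of 10, beside 17.4% of all and 5.92% outside crowded bins. ZEB1 regions were at 0 beside 3.78% and 0.168%, and ZNF609 regions at 0 beside 1.57% and 0.0389%. At such shares a count of 0 among 10 genes lies near the background. In single lists INTS13 had a peak at 10 genes in replicate 1 and 10 in replicate 2 (79.5% and 68.1% of all genes), and HDGF at 8 and 6 (38.5% and 34.6%). INTS11 had one at 4 and 2 genes (50% and 22.2%), ZEB1 at 1 and 0 (13.3% and 8.48%) and ZNF609 at 0 and 0 (7% and 3.43%). In number of genes per list, INTS13 exceeded INTS11 by a mean of 7, HDGF by 3, ZEB1 by 9.5 and ZNF609 by 10. The INTS13 lists lay above both lists of each other protein, but an exact two-sided permutation test of 2 against 2 libraries gives p = 0.333 for each of these 4 comparisons, the smallest it can give, and 0.333 after adjustment over the 4.

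The INTS13 count depends on the length of its lists. When all lists were cut to their 26409 strongest peaks by p-value, the length of the shortest, INTS13 replicates 1 and 2 were at 4 and 1 of the 10 genes, beside 27.6% and 14.3% of all genes, so that replicate 2 was below that share. HDGF replicates 1 and 2 were then at 6 and 2 of the 10, beside 13.2% and 13.7%. With only peaks whose -log10 q reached 5, INTS13 was found at 7 and 3 genes (45.3% and 20.3% of all), and HDGF at 1 and 0 (6.34% and 4.43%). Under that threshold the single HDGF gene was HSPA5, by a peak with its summit 1616 bp inside the gene.

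**Figure D1:**
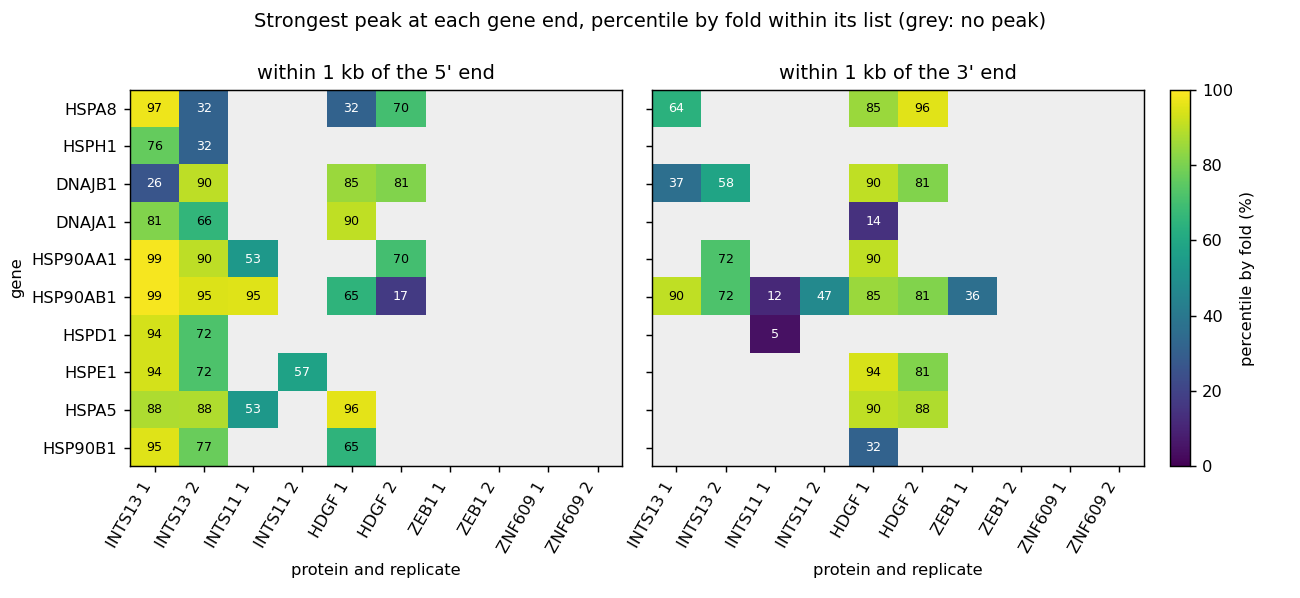
Percentile by fold, within its own list, of the strongest peak within 1 kb of the 5' end (left) and 3' end (right) of each gene, for the 10 lists; grey cells have no peak. INTS13 fills both columns on the left for all 10 genes, while HDGF is filled more often on the right, and ZNF609 is grey throughout.

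INTS13 and HDGF regions were counted at different ends of the genes. INTS13 regions were at the 5' end of 10 of 10 genes, beside 60.1% of the 15813 protein-coding genes of known strand, and at the 3' end of 3 of 10, beside 43.4%. The 3' ends were those of DNAJB1, HSP90AA1 and HSP90AB1, although at HSP90AA1 the replicate 1 peak of the region lay outside the window. HDGF regions were at the 3' end of 6 of 10 genes, beside 14.9% of all, and at the 5' end of 2 of 10, DNAJB1 and HSP90AB1, beside 15.4%. Single lists showed the same split for INTS13, with peaks at 10 and 10 of the 5' ends (77.8% and 62.5% of all genes) and at 3 and 3 of the 3' ends (52.8% and 49.3%). For HDGF the split was less clear, with peaks at 6 and 4 of the 5' ends (26.3% and 24.5%) and at 8 and 5 of the 3' ends (28.1% and 23.7%). Peaks were counted by overlap with the window, and some HDGF peaks at the 3' ends had their summit more than 1 kb inside the gene. In 7 genes INTS13 was at the 5' end alone (70%), beside 21.5% of all genes, and in 4 genes HDGF was at the 3' end alone (40%), beside 7.66% of all. INTS13 regions spanned the 5' gene end itself in 10 of 10 genes, beside 48.2% of all, and the 3' end in 2 of 10, beside 23.8%. By single peaks, INTS13 replicate 1 spanned the 5' end in 10 genes, beside 58.5% of all, and replicate 2 in 4, beside 30.5%. HDGF regions spanned the 3' end in 4 of 10 genes, beside 7.13%, and the 5' end in 1 of 10, beside 4.39%. Of the 9 INTS13 regions at the 5' ends, of which HSPD1 and HSPE1 share 1, HDGF regions overlapped 2 (22.2%), beside 13.1% of all 203599 INTS13 regions. Conversely, 7 of the 13 HDGF regions at the ends of these genes overlapped an INTS13 region (53.8%), beside 76.6% of all 44211 HDGF regions.

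**Figure D2:**
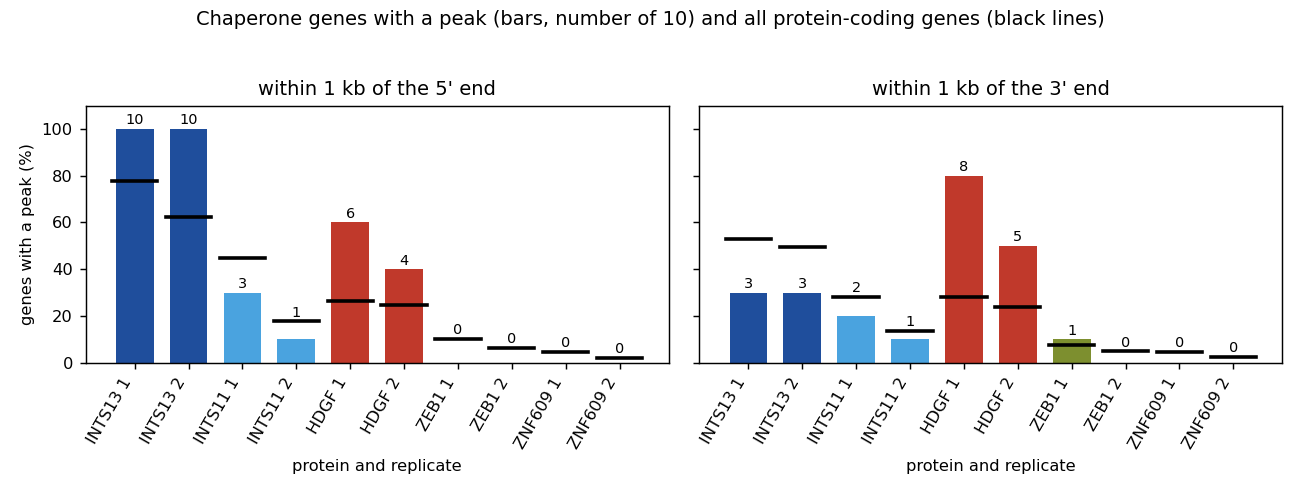
Share of the 10 chaperone genes with a peak within 1 kb of the 5' end (left) and the 3' end (right) in each list, as bars with the number of genes above them; black lines give the share of all protein-coding genes of known strand. The INTS13 bars reach 100% at the 5' end and 30% at the 3' end, and the HDGF bars exceed the black lines at both ends.

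Among the cytosolic HSP70 machinery, HSPA8 (chr11:123057489-123062462, minus strand), the constitutive HSP70, had INTS13 peaks of both replicates at the 5' end and a peak of replicate 1 at the 3' end, with a fold of 2.42 in the 63.8 percentile. At the 5' end the fold was 3.46 in replicate 1, in the 97.3 percentile, and 1.96 in replicate 2, in the 31.6 percentile, so that the replicates place this peak very differently. HDGF had 4 peaks of replicate 1 and 5 of replicate 2 in the gene. Its strongest at the 3' end had folds of 3.55 and 4.41, in the 84.8 and 95.5 percentiles. HSPH1 (chr13:31134973-31162388, minus strand), a relative of HSP70 that acts as its nucleotide exchange factor, had INTS13 peaks with folds of 2.60 and 1.96, in the 76.4 and 31.6 percentiles, and no other protein at its ends. Its pattern over the 10 lists was shared with 2018 genes (10.1%), the most common of the patterns of these 10 genes. DNAJA1 (chr9:33025273-33039907, plus strand) and DNAJB1 (chr19:14514769-14560391, minus strand) are J-domain co-chaperones that pass clients to HSP70. At the 5' end of DNAJA1 INTS13 had folds of 2.68 and 2.22, in the 81.1 and 65.7 percentiles, and HDGF had peaks in replicate 1 only, in the 90.3 percentile at the 5' end and the 14.4 percentile at the 3' end. At the 5' end of DNAJB1 the INTS13 folds were 2.08 and 2.61, in the 26.5 and 90.2 percentiles, with replicate 2 the higher here in contrast to HSPA8. DNAJB1 also had HDGF peaks in both lists at both ends, in the 84.8 and 81.0 percentiles at the 5' end and the 90.3 and 81.0 percentiles at the 3' end. At the 5' end these strongest peaks of the replicates did not overlap each other.

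HSP90AA1 (chr14:102080742-102139749, minus strand) and HSP90AB1 (chr6:44246194-44253883, plus strand) encode the inducible and the constitutive cytosolic HSP90, which stabilises kinases and hormone receptors. They had the highest INTS13 folds of the 10 genes at the gene ends in replicate 1, and in replicate 2 HSP90AB1 was highest and HSP90AA1 level with DNAJB1. HSP90AA1 had folds of 3.81 and 2.61 at the 5' end, in the 98.8 and 90.2 percentiles. HSP90AB1 had folds of 3.72 and 2.81, in the 98.5 and 94.7 percentiles, and its 2 peaks there were 3400 and 3266 bp wide and spanned all 3 annotated starts. They were the 2 genes of the 10 with INTS13 regions at a -log10 q of 5 or more, beside 18.1% of all genes. HSP90AB1 was the 1 gene of the 10 with such a region among the 26409 strongest peaks, beside 11.2% of all, so that both counts are close to the background. HSP90AB1 was the gene with the most lists, 7 of 10, against a median of 4 for the 10 genes and of 3 for all protein-coding genes. INTS11 replicate 1 had a peak at its 5' end with a fold of 2.82, in the 95.2 percentile, and peaks of replicates 1 and 2 at its 3' end lay in the 11.7 and 47.2 percentiles and did not overlap each other. The only ZEB1 peak at these gene ends was also here, at the 3' end in replicate 1, with a fold of 2.41 in the 36.4 percentile. HSP90AA1 had an HDGF region near its 3' end, chr14:102078947-102080082, but the peak of replicate 2 in it lay outside the window of 1 kb. Other INTS11 peaks were in the 53.4 percentile of replicate 1 at the 5' ends of HSP90AA1 and HSPA5, in the 4.53 percentile of replicate 1 at the 3' end of HSPD1 and in the 57.5 percentile of replicate 2 at the 5' end of HSPE1. The end of SLC35B2, a neighbouring gene, lies within 1 kb of an end of HSP90AB1, and that of WDR20 within 1 kb of an end of HSP90AA1, so that peaks there cannot be assigned to one gene. The windows also hold ends of APTX at DNAJA1, of RABEPK and HSPA5-DT at HSPA5, and of TTC41P and MIR3652 at HSP90B1. SNORD14E and LOC124902775 have an end in those of HSPA8, LOC105370148 in those of HSPH1, and HSPD1 and HSPE1 in each other's. DNAJB1 alone had no other gene end in its windows, and the same limit applies to peaks near the ends named.

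HSPD1 (chr2:197486584-197500274, minus strand) and HSPE1 (chr2:197500379-197503449, plus strand), the mitochondrial chaperonin and its co-chaperonin, are transcribed away from each other and share one INTS13 region, chr2:197498676-197500954. It was made of a peak of replicate 1 with a fold of 3.12, in the 93.7 percentile, which spanned both starts, and a peak of replicate 2 with a fold of 2.29, in the 72.0 percentile, which lay inside HSPD1. The 2 genes are therefore 1 observation for INTS13. For HDGF they differed. HSPE1 had 3 HDGF regions around its 3' end, with strongest folds of 3.94 and 3.72, in the 93.8 and 81.0 percentiles, whereas HSPD1 had no HDGF peak within 1 kb of its ends and its 4 and 1 HDGF peaks lay inside the gene. The 3' end of HSPE1 lies within the longer read-through gene HSPE1-MOB4. HSPA5 (chr9:125234853-125241343, minus strand) and HSP90B1 (chr12:103930410-103947926, plus strand) are the HSP70 and the HSP90 of the endoplasmic reticulum. At HSPA5 the INTS13 folds were 2.86 and 2.55, in the 87.9 percentile of both lists, the closest agreement of the 2 lists among the 10 genes. The strongest HDGF peak of replicate 1 in any of these windows reached that of the 5' end of HSPA5, with a fold of 4.14. Its summit lay outside the window, 1616 bp inside the gene, and replicate 2 had no HDGF peak in that window. At the 3' end of HSPA5 HDGF had folds of 3.75 and 3.95, in the 90.3 and 88.2 percentiles, although the peaks of the 2 lists there met at only 1 place, chr9:125235532-125236785. HSP90B1 had INTS13 folds of 3.20 and 2.35, in the 94.9 and 77.2 percentiles, and HDGF peaks in replicate 1 only, in the 65.1 percentile at the 5' end and the 31.6 percentile at the 3' end.

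Over the genes with a peak at an end, the strongest INTS13 peak had a median percentile of 93.7 in replicate 1 and 74.6 in replicate 2, beside 90.3 and 77.2 for all protein-coding genes with one. The median of the 10 genes was thus higher than that of all genes in replicate 1 and lower in replicate 2, with single genes on both sides in each. For HDGF the medians were 90.3 and 81.0, over 8 and 6 genes, beside 76.7 and 69.9. The medians hold only genes with a peak and do not describe all 10.

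**Figure D3:**
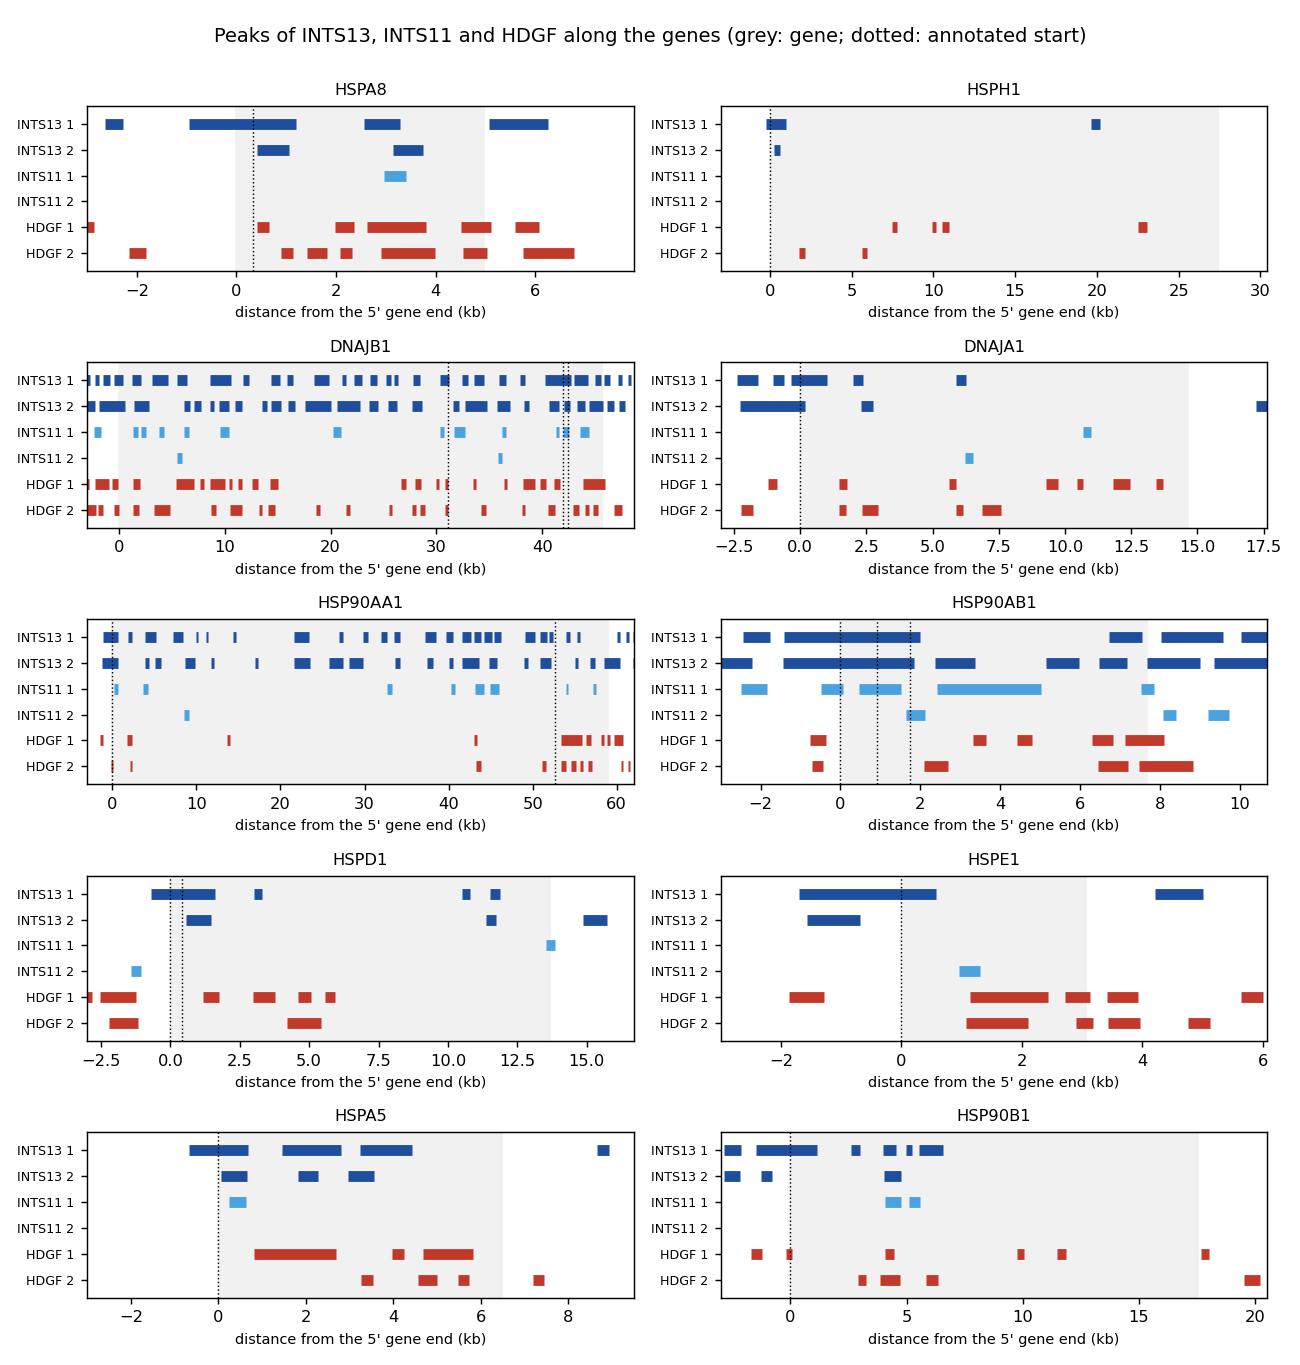
Peaks of INTS13 (dark blue), INTS11 (light blue) and HDGF (red), 2 lists each, along each gene, as bars against the distance from the 5' gene end in kb in the direction of transcription; the gene is grey and dotted lines are annotated starts. INTS13 bars of replicate 1 sit on the 5' end of each gene, while those of replicate 2 span it in 4 of 10 and otherwise lie near it. HDGF bars lie mostly inside the gene or around its 3' end, and in HSP90AA1 HDGF bars are packed most densely past the inner start.

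HDGF lay along the bodies of all 10 genes. Peaks of HDGF were found between the ends of 10 of 10 genes in both lists, beside 61.5% and 57.4% of all protein-coding genes, and more than 1 kb inside the ends of 10 of 10, beside 63% and 58.9%. The share of the gene under HDGF peaks had a median of 19.6% in replicate 1, with a range of 5.68% to 53.5%, and of 13.7% in replicate 2, with a range of 2.43% to 48.5%. The medians over all protein-coding genes were 1.78% and 0.89%, and 10 of 10 genes lay above them in both lists. HSPE1, with 53.5% and 39.3%, and HSPA8, with 45.6% and 48.5%, were covered most in both lists together, and HSPH1, with 5.68% and 2.43%, least. HSPA5 had 50.8% in replicate 1 but 14.6% in replicate 2, the widest gap between replicates. Peaks of INTS13 lay between the ends of 10 and 9 genes, beside 85% and 79.5% of all. INTS13 covered a median of 24.8% and 17.1%, beside 16.7% and 14.3% over all genes, with 8 and 5 of 10 genes above these. INTS13 coverage was thus higher than that of other genes in replicate 1 and closer to it in replicate 2.

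The HDGF coverage of the genes was mostly above that of their surroundings. In 9 of 10 genes the gene had a higher covered share than its whole megabase bin in each list, with a median ratio of 6.40 in replicate 1 and 5.73 in replicate 2. At HSPA8 the bin was covered to 1.24% and 0.875%, so that the gene exceeded it 36.9 and 55.5 times, and HSPE1 exceeded its bin 29.2 and 26.2 times. HSP90AA1 was the exception, with ratios of 0.923 and 0.993. For INTS13 the gene exceeded its bin in 8 of 10 genes in replicate 1 and 5 in replicate 2, with median ratios of 1.95 and 1.06. The ratio was computed for these 10 genes alone, so the share of all genes that exceed their bin is not known. The counts for both proteins are therefore a description only.

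**Figure D4:**
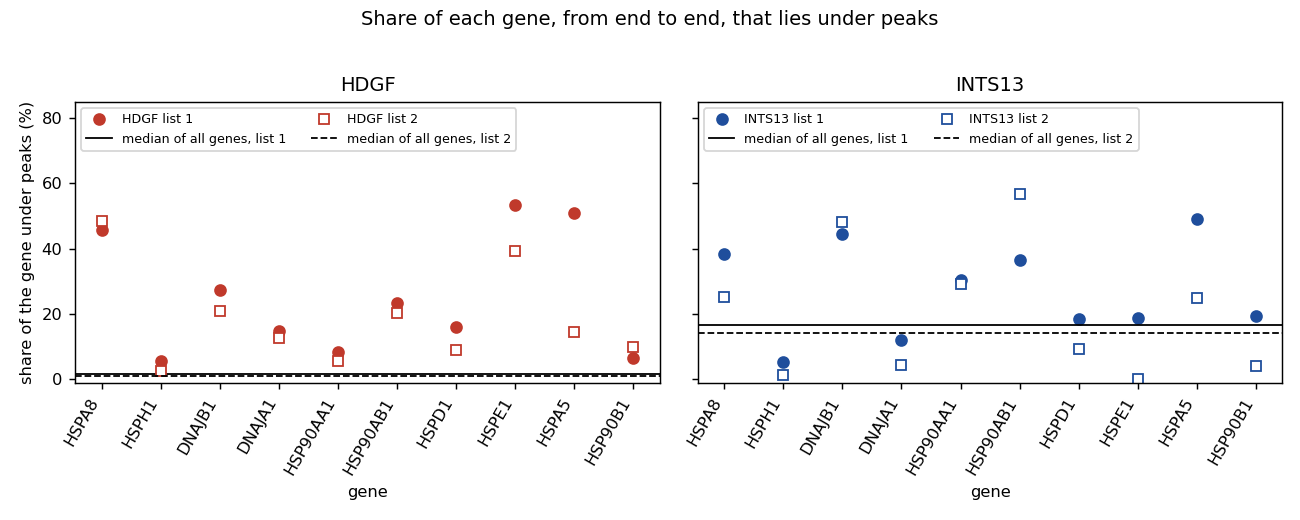
Share of each gene, from end to end, under peaks of HDGF (left) and INTS13 (right), in percent, with filled circles for replicate 1 and open squares for replicate 2; lines give the medians over all 19974 protein-coding genes. All HDGF points lie above both lines, whose values are 1.78% and 0.89%, whereas INTS13 points lie on both sides of theirs.

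The inner starts of 2 genes lie far from the gene end and were looked at after their values were seen. RefSeq places an end of HSP90AA1 52705 bp upstream of its inner start at chr14 position 102087044, where the heat shock elements lie. From that inner start to the 3' end, a unit of 6303 bp, HDGF peaks covered 58.7% in replicate 1 and 31.3% in replicate 2, with 4 peaks each. Upstream of the inner start they covered 2.36% and 2.43%. INTS13 went the other way, with 13.7% and 24.0% in the short unit and 32.3% and 29.9% upstream, and neither INTS13 list had a peak over the inner start itself. DNAJB1 has its heat shock elements at an inner start 41994 bp from the gene end. There HDGF covered 48.5% and 43.3% of the short unit of 3629 bp and 25.5% and 19.1% upstream, and INTS13 covered 70.6% and 71.6% against 42.2% and 46.2%. An INTS13 peak of replicate 1 over this inner start had a fold of 3.98, in the 99.2 percentile, above any INTS13 peak at the annotated ends of the 10 genes. In replicate 2 no INTS13 peak lay over this start. The nearest had a fold of 1.89, in the 22.3 percentile, and the next a fold of 2.16, in the 58.4 percentile. When only annotated starts were used, INTS13 regions were at 10 of 10 genes, beside 61.9% of all. HDGF regions were then at 3 of 10, beside 17.7%, and INTS11 regions at 0, beside 16.2%.

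Other genes of the chaperone network were counted in 9 lists of 95 genes in all. Regions of INTS13 were at the ends of 73 of the 95 (76.8%). HDGF had regions at 44 (46.3%) and INTS11 at 27 (28.4%). ZEB1 had them at 8 (8.42%), and ZNF609 at 1 (1.05%). Over all protein-coding genes these shares were 63.7%, 22.2%, 17.4%, 3.78% and 1.57%, and with few genes in each list the counts by list are a description only. HDGF was at 9 of 12 HSP90 co-chaperone genes, 8 of 14 J-domain genes, 9 of 16 genes of the endoplasmic reticulum, 6 of 14 chaperonin and prefoldin subunit genes and 5 of 7 mitochondrial genes, but at 1 of 11 other HSP70 and HSP110 genes, 1 of 8 nucleotide exchange factor genes and 2 of 9 small heat shock protein genes. INTS13 was at 4 of 4 heat shock factor genes and HDGF at 3. HSPA1A and HSPA1B, the stress-inducible HSP70 genes, had no peak of any list at their ends, and were named after their values were seen. The same held for HSPA1L, BAG6 and PFDN6, so that 5 of the 9 related genes on chromosome 6 were without a peak, and 8 of all 95. The share of all protein-coding genes without a peak in any list was not computed. HSPA1A and HSPA1B are near-identical copies, and peaks on contigs other than chromosomes 1 to 22 and X were left out. The cause of the lack of peaks at these 8 genes was not tested. INTS11 was at 9 of 16 genes of the endoplasmic reticulum list, and 6 of the 9 lie in crowded bins, where none of the 10 genes lie. Of the 95 genes, 19 (20%) had regions of 3 or more proteins, beside 11.4% of all protein-coding genes, and 15 of the 19 lie in crowded bins. TTC4, an HSP90 co-chaperone, had all 5 proteins and a peak in 10 of 10 lists, and ATF4, CANX, DNAJB6, DNAJC8, PDIA4, SDF2L1 and UNC45A had 4; CCT3, CCT8, DDIT3, DNAJB4, FKBP4, HSF4 and LONP1 had 3. Of these 15 genes CCT8, DDIT3, FKBP4 and LONP1 lie outside crowded bins.

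Among genes in none of these lists, those with the most similar pattern over the 10 lists were MAP2K2, MED8, CMTR1, KLHDC3 and ABHD16B. Similarity was the Euclidean distance between the percentiles of the strongest peak in each list and the median of the 10 genes, with 0 where there was no peak. Their distances were 6.69 to 9.42, beside 47.7 for HSPA8, the nearest of the 10 genes, and 124.5 for HSPH1, the farthest, and a median of 133.9 over all protein-coding genes. Each had INTS13 and HDGF peaks in both lists and no peak of the other 3 proteins, which follows from their choice by distance to that median. Among the 10 genes only HSPA8 and DNAJB1 had this pattern of lists themselves.

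Several of these genes have pseudogenes elsewhere. How reads that match several places were treated is not stated. The annotation names 92 pseudogenes after the 10 genes, among them 28 of HSPE1, 22 of HSPD1 and 20 of HSPA8. INTS13 regions were at 26 of the 92, beside 29% of all 16664 pseudogenes, and HDGF regions at 3, beside 4.66%. Peaks over exons of HSPE1, HSPD1 and HSPA8 may therefore be less certain than those of the other genes. This limit includes the HDGF coverage of HSPE1 and HSPA8 given above. The part of copies in these results was not tested.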

How the data were processed

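Chromatin of HEK293T cells was immunoprecipitated with antibodies to 5 proteins, 2 libraries each. Per the submitters' processing notes, the authors used FastQC, Trimmomatic, Bowtie, Picard and MACS2; no version, threshold or build is given in the sources used here, and GRCh38 was inferred from contig names. The authors deposited 1 peak list per library, with a fold (a linear ratio to background), p-value and q-value on a -log10 scale and a score, which was not used. Peaks on chromosomes 1 to 22 and X were joined to RefSeq genes with Python 3.11.15, pandas 2.3.3, numpy 2.4.6 and scipy 1.17.1. Strand came from the RefSeq promoter table, for 15813 genes. Regions were merged where peaks of both lists overlapped by 1 bp or more. Megabase bins with a median count over the 10 lists above 2 times the mean were called crowded. The occupancy steps were tested on simulated data. Named genes were the 10 members, up to 15 related genes with 3 or more proteins and the 5 most similar genes. Members and lists were chosen with earlier results of these data known, and no set test was run. Alternatives changed the window, the gene end, the threshold, list length, and replicates.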

Additional observations from a re-analysis of the deposited data

How the results depend on the processing

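The INTS13 count of 10 genes stayed 10 with windows of 500 bp or 5 kb (60.3% and 72.0% of all genes), at start sites only (61.9%), with a peak of each list (65.9%) and in each list alone. It was 8 with summits in the window (54.9%), 2 at a -log10 q of 5 or more (18.1%) and 1 with lists of equal length (11.2%). The HDGF count of 6 was 9 with 5 kb (38.2%), 4 with 500 bp (16.4%), 5 with summits (21.3%), 3 at start sites only (17.7%), 0 at a -log10 q of 5 or more (2.66%) and 1 with lists of equal length (7.19%). Without replicate 1 or 2 it was between 6 and 8. The INTS11 count of 0 was 1 with summits (15.7%), 1 with a peak of each list (20.0%), and between 2 and 4 without a replicate. The ZEB1 count of 0 was between 0 and 1 without a replicate. The difference of INTS13 and HDGF in genes per list was 3, 0 with windows of 5 kb and -1.5 with lists of equal length. The causes of these changes were not tested. With the replicate number as a block, an alternative chosen after seeing the data, the differences of 7, 3, 9.5 and 10 had an exact sign-flip p of 0.5, the smallest that 2 pairs can give. The labels do not say whether a number marks a shared batch, and replicate 1 had the longer list for all 5 proteins. Depth is unknown, and 2 libraries per protein cannot give an exact p under 0.333.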
